A study of Drosophila melanogaster with 12 samples.

Results

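The genes described here are the neighbours of Tdrd5l on chromosome X of Drosophila melanogaster. They start between 2.815 and 7.817 Mb, within 2.5 Mb of Tdrd5l on either side, which itself lies at 5315130 to 5317295 on the minus strand (BDGP6.54). Of the 17558 features counted in every library, 497 start in this window. Leaving out Tdrd5l itself, Sxl, ovo, snf, rux, mof, antisense and long noncoding RNAs and the genes of ribosomal, proteasome, respiratory chain and ATP synthase subunits removed 77 of them, which leaves 420 members. The rule picks members by position and symbol and not by any expression value, though it was chosen with earlier results of these data known. They comprise 393 protein-coding genes, 9 ncRNAs, 7 pseudogenes, 6 snoRNAs and 5 tRNAs, with 216 on the plus and 204 on the minus strand. The other parts of chromosome X hold 2103 counted genes, and these are the set against which the genotype difference in the window was read.

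RNA was sequenced from 3 testis and 3 ovary samples of the Tdrd5l mutant and from 3 testis and 3 ovary samples of control flies of genotype cas9 iso, giving 12 libraries. Gonads of both genotypes came from flies reared at 25 °C, from males aged 1 to 2 days and females aged 0 to 1 day. Testis libraries were made from ribosome-depleted RNA and ovary libraries from poly(A) selected RNA, so tissue, sex, age and RNA selection cannot be told apart, and each tissue was tested by itself. The lesion in Tdrd5l, how the mutant line was made and whether the lines share the rest of their X chromosome are not stated in the sources used here, so Tdrd5l genotype and other sequence differences between the lines cannot be told apart.

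Tdrd5l encodes a Tudor domain protein, a family whose members bind methylated arginines and are known for work in the RNA granules of germ cells. Genes that lie near one another on a chromosome tend to be passed on together, and a comparison of separate lines takes in the flanking genes as well as the targeted one. Drosophila males carry a lone X chromosome and females a pair.

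The targeted gene was counted in every testis library, with 938, 739 and 679 counts in mutant testes and 542, 549 and 684 in control testes. Scaled to library size this was 347 ± 120 CPM (counts per 1000000) in mutant testes, against 346 ± 65.2 CPM in control testes, as means ± SD of 3 libraries each, so the counts alone do not tell the genotypes apart. In ovaries it had 12, 8 and 11 counts in mutant and 9, 4 and 6 in control libraries. Libraries held 1390699 to 2880119 gene counts in testes and 772292 to 1647933 in ovaries. Of uniquely aligned records, 94.86% to 96.6% in testis and 96.64% to 98.01% in ovary libraries fell in no feature. The library kit does not mark strand and the strand setting of the counting is not stated, so a gene whose exon bases face an exon on the other strand is uncertain. Why so large a share of records fell in no feature was not tested. For that reason levels of genes without an opposite exon are uncertain too. Levels given here are those of the deposited counts and may differ from those of the RNA. Among the members 73 have such bases and 347 have none. Mutant ovary library 2 stood apart: genes of any chromosome without an opposite exon made up 33.5% of its gene counts, against 9.51% and 8.95% in the other mutant ovary libraries and 17.9%, 12.2% and 10.6% in control ovary libraries. By the same share, mutant testis library 3 stood apart with 27.8%, against 40.8% and 44.8% in the other mutant testis libraries and 30.7%, 35.0% and 38.5% in control testis libraries. The summed level of 10 testis germline markers, among them aly, can and Mst87F, was 5303 to 9043 CPM in mutant testes, 5045 to 6346 CPM in control testes, 0 to 6.27 CPM in mutant ovaries and 2.40 to 14.4 CPM in control ovaries. The summed ovary list of germline and follicle genes was 258 to 1670 CPM in mutant ovaries and 306 to 433 CPM in control ovaries, where the vitelline membrane gene Vm26Aa was at 0. The same list was at 92.0 to 194 CPM in mutant testes and 121 to 187 CPM in control testes, so it set the tissues apart far less than the testis list. In testes 4 muscle, 2 fat body, 1 accessory gland, 2 hemocyte and 3 neuronal markers passed the filter on low counts and none was called; no gut marker passed it.

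More members had counts in testes than in ovaries. Counts were found for 358 members in mutant testes, 359 in control testes, 328 in mutant ovaries and 326 in control ovaries, and 23 members had none in any library. Members took 1.94%, 1.98% and 1.99% of gene counts in mutant testis libraries, against 2.05%, 2.12% and 2.00% in control testis libraries. As a share of chromosome X counts, taken over genes with the same kinds of symbols left out, they made up 26.5%, 25.9% and 28.4% in mutant testes and 23.2%, 24.6% and 21.4% in control testes. Both shares were free of overlap between the genotypes, the first lower and the second higher in mutant testes. For the first share the margin was 1.989% against 1.996%, and 11.8% of all tested genes in testes were likewise free of overlap. These sums rest largely on the gene mldr, with 22937 of 54170 window counts in mutant testis library 2 and 20966 of 32663 in library 3. In ovaries the window took 1.35%, 1.82% and 1.29% of gene counts in mutant libraries and 1.53%, 1.41% and 1.38% in control libraries, which overlap. With a threshold of 30 summed counts, 97 members reached it in both control tissues, 120 in control testes alone, 32 in control ovaries alone and 171 in neither. Of those that reached it in control testes alone, 29 had no count in control ovaries, while no member that reached it in control ovaries was without counts in control testes. The threshold is on raw counts, and control testis libraries held 1390699 to 2228627 gene counts against 772292 to 969812 in control ovary libraries. Tissue, depth and RNA selection cannot be told apart in these numbers, and the same classes were not counted over all features.

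A few members carried most of the window's counts. The top 5 members of each library held 53.9% to 70.4% of the window counts in mutant testes and 59.8% to 69.1% in control testes. The most abundant was mldr, with 8608, 7535 and 14780 CPM in mutant testes and 14010, 11890 and 9907 CPM in control testes. Its groups overlap, the log2 fold change of mutant over control was -0.21 (SE 0.36), and 35.9% of its exon bases lie opposite CG15892. TrxT, the testis thioredoxin, followed with 989, 884 and 314 CPM in mutant testes and 406, 715 and 762 CPM in control testes, the lowest value being that of mutant library 3. Act5C, a cytoplasmic actin, had 479, 461 and 476 CPM in mutant testes and 318, 361 and 359 CPM in control testes. All mutant libraries lay above all control libraries for Act5C, but the difference of 0.45 on the log2 scale (SE 0.32) was not called (edgeR adjusted p = 0.832). The next were Tsp5D, a tetraspanin, and CG4198, with log2 fold changes of -0.24 and 0.63, neither of them called. The 5 most abundant members in control ovaries by CPM were CG12535, CG14431, ppk8, a gene of the pickpocket sodium channel family, the mitochondrial kinase gene Pink1 and the histone acetyltransferase gene Tip60. All 5 have exon bases opposite another gene, from 10.5% of them in Pink1 to 57.4% in CG12535. Of the 420 members 73 have such bases. Which strand the counts of these 5 came from was not tested, so their ovary levels and rank are uncertain. Per kilobase of exon, CG12535 was at 812 CPM in mutant ovaries and 785 CPM in control ovaries. The others lay between 160 and 293 CPM per kilobase in mutant ovaries and between 137 and 319 in control ovaries, and the log2 fold change farthest from 0 was 0.365, of CG14431.

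**Figure D1:**
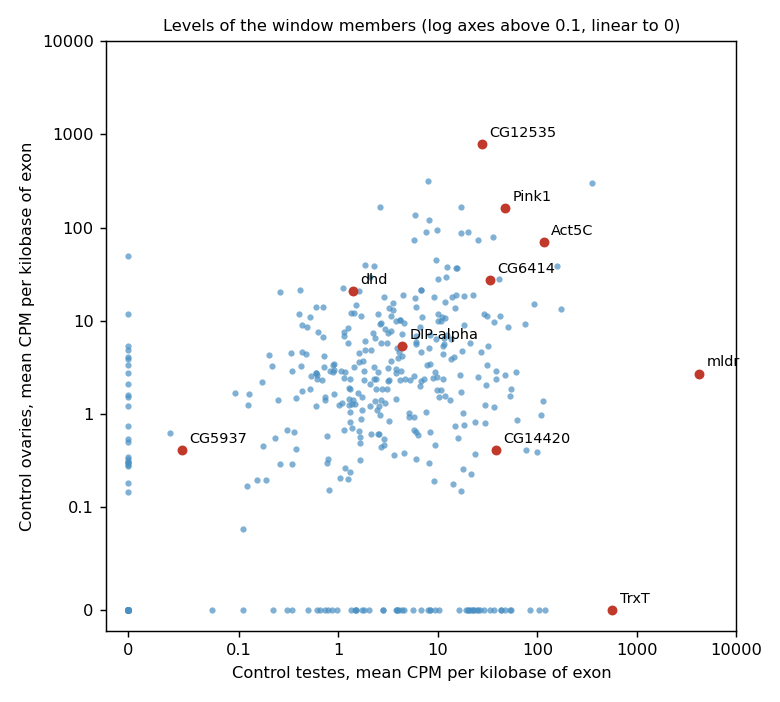
Mean level of each of the 420 members in control testes (horizontal axis) and control ovaries (vertical axis), in CPM per kilobase of exon, with log axes above 0.1 and linear axes below. TrxT lies at 567 in testes and 0 in ovaries and mldr at 4250 in testes, whereas CG12535 reaches 785 in ovaries; red points are named members and the tissues were scaled separately.

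The main comparison asked whether genes near Tdrd5l differed between mutant and control testes, and whether they did so more often than genes elsewhere on chromosome X. In testes 10 members changed, 6 of them higher and 4 lower in the mutant. CG5937, CG43115, CG15577, CG15912, CG34434 and DIP-alpha were higher, and CG14420, CG6414, Ca-alpha1T and CG12535 were lower. At the extremes, CG14420 and CG6414 averaged 2.40 and 2.84 CPM in mutant testes and 60.5 and 70.1 CPM in control testes, while CG5937 and CG43115 averaged 33.9 and 60.7 CPM in mutant testes and 0.402 and 5.50 CPM in control testes. All of the 10 differed over 2-fold and none had overlapping genotypes, beside 6.44% and 11.8% of all tested genes. A call with 3 libraries in each group favours both traits. The 10 are all protein coding, and 8 carry a CG number in place of a name. No exon base of 6 of them lies opposite another gene, and CG12535, CG6414, CG15912 and DIP-alpha have such bases.

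Calls were made with edgeR's quasi-likelihood test on the counts at a Benjamini-Hochberg adjusted p under 0.05 over all tested genes, and SE stands for the standard error of the log2 fold change. The filter on low counts passed 232 members in testes and left 188 untested. Of the tested members 4.31% were called, against 0.942% of all 9768 genes tested, where 0.317% were higher and 0.624% lower. On the rest of chromosome X 12 of 1151 tested genes were called, or 1.04%, with 3 higher and 9 lower. With the same kinds of symbols left out there as in the window, it was 12 of 1067, or 1.12%. On arms 2L, 2R, 3L and 3R, treated likewise, it was 42 of 7264, or 0.578%.

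Most members differed little between the genotypes. The median size of the log2 difference was 0.31 over tested members, 0.30 over tested genes of the rest of chromosome X and 0.30 over the 4 autosomal arms. The median with its sign was 0.07 in the window and -0.02 on the rest of chromosome X. Of the 222 members tested and not called, 209 lay within 2-fold. Members over 2-fold numbered 23, or 9.91%, against 6.44% of all tested genes and 6.17% on the rest of chromosome X. Genotypes without overlap were found for 39 members, or 16.8%, against 11.8% of all tested genes and 9.56% on the rest of chromosome X, with 22 members above and 17 below control. Members without an opposite exon gave 6 calls among 176, or 3.41%, and genes of the rest of chromosome X of that kind 11 among 719, or 1.53%.

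The gap between the window and the rest of chromosome X depended on mutant testis library 3. Without it, 19 of 266 tested members were called, or 7.14%, against 66 of 1272 on the rest of chromosome X, or 5.19%, and 6.83% of all tested genes, and all of the 10 called members were among the 19. Leaving out any other testis library gave 7 to 9 called members and 8 to 13 called genes of the rest of chromosome X. As shares, this was 2.71% to 3.47% of tested members and 0.69% to 1.04% of tested genes of the rest of chromosome X. Of all tested genes 0.493% to 1.13% were then called.

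**Figure D2:**
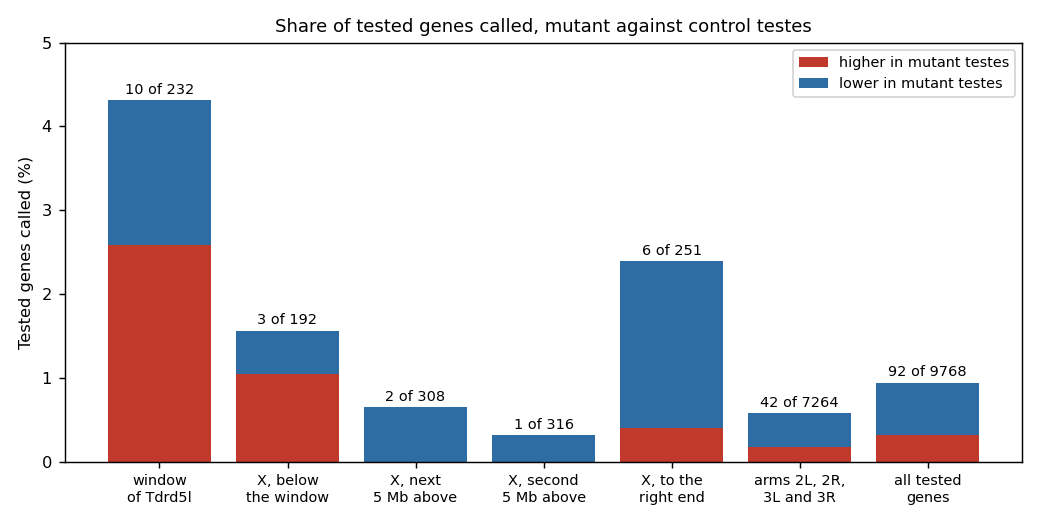
Share of tested genes called between mutant and control testes (vertical axis, percent, from 0), split into genes higher and genes lower in mutant testes, for the window, 4 other stretches of chromosome X, the autosomal arms and all tested genes. The window stands at 4.31% and the other stretches of chromosome X between 0.316% and 2.39%; numbers above the bars are called of tested genes.

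Taken stretch by stretch, the rest of chromosome X held fewer calls than the window. Leaving out the same kinds of symbols, 3 of 192 tested genes below the window were called, or 1.56%. Above it, the next 5 Mb held 2 of 308, or 0.649%, the following 5 Mb 1 of 316, or 0.316%, and the right end of the chromosome 6 of 251, or 2.39%. Within the window the nearest called member starts 299.4 kb from Tdrd5l. That distance rests on mutant testis library 3, since without it CG4198, which starts 0.0019 Mb from Tdrd5l, was called (edgeR adjusted p = 0.035). It rests on control library 1 as well, without which frma, at 0.1779 Mb, was called (edgeR adjusted p = 0.0235). Within 1 Mb of Tdrd5l, 5 of 117 tested members were called. Farther out, 5 of 51 were called at lower coordinates and 0 of 64 at higher coordinates, beside 0.942% of all tested genes. With so small a share, 0 of 64 does not set the higher side apart from all tested genes. There 1 member had an unadjusted edgeR p under 0.05 in each of the bins from 1 to 1.5 Mb and from 1.5 to 2 Mb. No member had one in the last bin. The 0 does not hold without mutant testis library 3, when CG3168 and CG44303 were called (edgeR adjusted p = 0.0331 and 0.0384), or without control library 2, when CG3168 was called (edgeR adjusted p = 0.0151). CG4198 apart, these genes are named because of these values. The called members span 3.17 Mb, 6 at lower and 4 at higher coordinates than Tdrd5l. In bins of 0.5 Mb, each with 7 to 41 tested members, 6 of the 10 bins held a call. Bin medians of the log2 fold change ran from -0.17 to 0.20, and 4 of the bins had under 20 tested members.

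**Figure D3:**
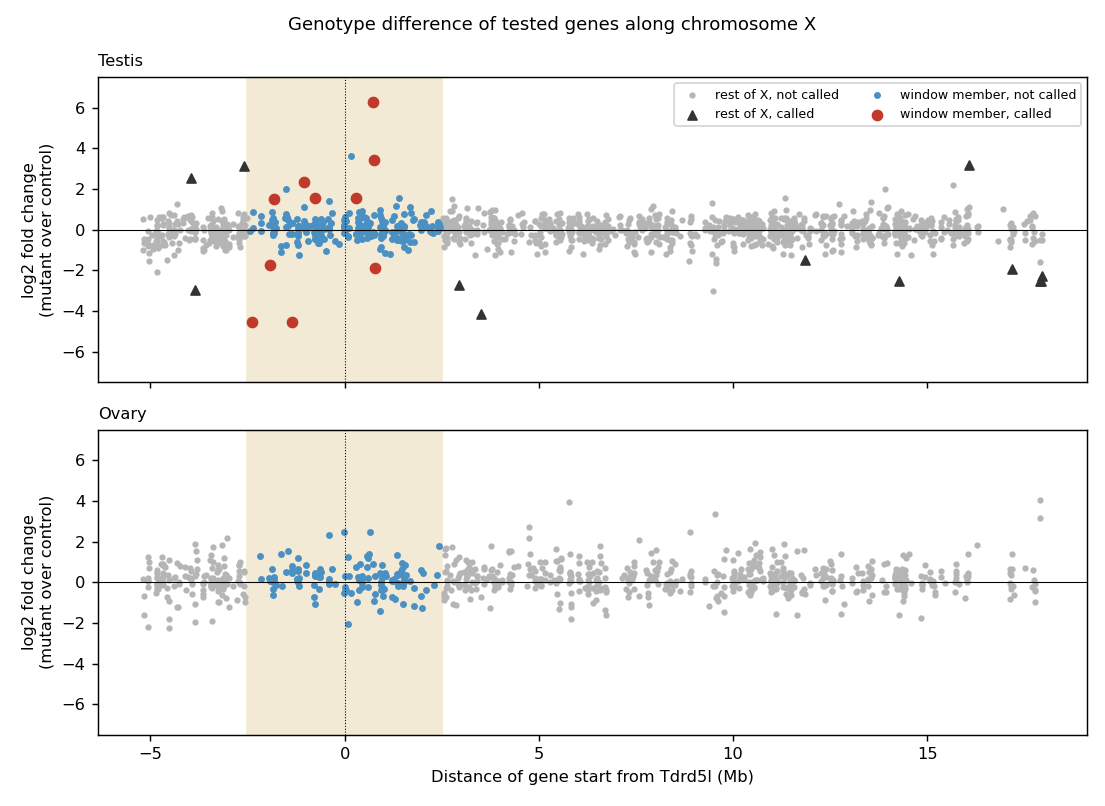
Log2 fold change of mutant over control (vertical axis) for each tested gene, against the distance of its start from Tdrd5l in Mb (horizontal axis), in testes (upper) and ovaries (lower), with the window shaded. In testes the 10 called members (red) lie from -4.55 to 6.26 among 222 members that were not called, and in ovaries no member was called; the highest value, of CG5937, rests on 2 control counts.

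Members that flank a called one are here the nearest tested ones, with starts up to 128.8 kb from that of the called member. Of 18 that were not called, 17 had a log2 fold change within 1 on either side of 0, beside 209 of 222 uncalled members. The exception was CG15578, which starts 1.1 kb from CG15577 and had 11.6, 17.7 and 2.82 CPM in mutant testes and 0, 7.02 and 7.36 CPM in control testes, overlapping (log2 1.12, edgeR adjusted p = 0.786). CG5937 and CG43115, whose starts lie 25.7 kb apart with no other tested member between them, were both higher in mutant testes. Ca-alpha1T starts 64.1 kb from CG5937 and was lower.

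Members higher in mutant testes are described in order of size, and no role is given for genes known by a CG number. CG5937 (FBgn0029834, X 6040005 to 6050381, plus strand) was counted 68, 76 and 76 times in mutant testes and 1, 0 and 1 times in control testes. This is 23.3, 25.0 and 53.6 CPM in mutant testes and 0.774, 0 and 0.433 CPM in control testes, near the detection limit in every control library. The ratio of 220 to 2 counts was 79.1 with a 95% counting interval of 21.6 to 657, which covers counting error only (edgeR adjusted p = 1.77e-07). In ovaries CG5937 had 1, 0 and 0 counts in mutant and 0, 2 and 6 in control libraries, too few to test.

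CG43115 (FBgn0262575, X 6065729 to 6066416, minus strand) had 82.4, 68.0 and 31.7 CPM in mutant testes and 3.87, 5.26 and 7.36 CPM in control testes. The lowest mutant library was 3, and it still lay above every control library. The log2 fold change was 3.42 (SE 0.44, edgeR adjusted p = 3.58e-06). Ovary libraries held 1, 0 and 2 counts in mutants and 0 in each control.

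CG15577 (FBgn0040904, X 4276493 to 4277000, minus strand) had 51.3, 54.2 and 20.4 CPM in mutant testes and 9.29, 7.02 and 8.66 CPM in control testes. Again library 3 was the lowest of the mutant libraries, without reaching the control range. Its log2 fold change was 2.35 (SE 0.43, edgeR adjusted p = 0.00124), and no ovary library held a count.

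CG15912 (FBgn0029712, X 4549070 to 4549957, plus strand) had 221, 172 and 342 CPM in mutant testes and 94.4, 74.3 and 77.1 CPM in control testes. Here library 3 was the highest of the mutant libraries. Mutants differed from controls by 1.58 on the log2 scale (SE 0.34, edgeR adjusted p = 0.00899). Without control library 2 or 3 the adjusted p was 0.149 or 0.0502. CG11436, which shares 8.45% of the exon bases of CG15912 on the opposite strand, had a log2 fold change of -0.24.

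CG34434 (FBgn0250904, X 5614554 to 5616370, minus strand) is the called member nearest to Tdrd5l. It had 106, 137 and 88.8 CPM in mutant testes and 27.9, 49.7 and 36.8 CPM in control testes, with every mutant library above every control library. The log2 fold change was 1.53 (SE 0.34, edgeR adjusted p = 0.0125), and no ovary library held a count. Without mutant library 2, control library 1 or control library 3 the adjusted p was 0.121, 0.209 or 0.0597.

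DIP-alpha (FBgn0052791, X 3507245 to 3571649, minus strand) encodes an immunoglobulin protein of the cell surface that binds Dpr proteins between neurons. It had 108, 75.9 and 156 CPM in mutant testes and 46.4, 38.6 and 32.9 CPM in control testes, so that the lowest mutant library was well above the highest control library. The log2 fold change was 1.53 (SE 0.35, edgeR adjusted p = 0.0153). In ovaries the gene was at 45.4, 62.1 and 47.8 CPM in mutants and 48.0, 50.3 and 46.0 CPM in controls, which overlap (log2 0.11, SE 0.33). Without control library 1, 2 or 3 the testis adjusted p was 0.0614, 0.149 or 0.0966.

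Among members lower in mutant testes, CG14420 (FBgn0029643, X 2938856 to 2940527, plus strand) had 5.13, 0.657 and 1.41 CPM in mutant testes and 72.0, 49.7 and 59.8 CPM in control testes. Counts were 15, 2 and 2 in mutant libraries and 93, 85 and 138 in control libraries. The gene was thus near the detection limit in 2 mutant libraries and not in any control library. The log2 fold change was -4.55 (SE 0.50, edgeR adjusted p = 1.59e-07). Ovary libraries of both genotypes held almost no counts of CG14420, with 1, 0 and 0 in mutants and 2, 0 and 0 in controls. In a bulk sample, fewer cells of a type and less RNA per cell cannot be told apart.

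CG6414 (FBgn0029690, X 3968788 to 3971350, minus strand) had 3.76, 2.63 and 2.11 CPM in mutant testes and 94.4, 57.9 and 58.0 CPM in control testes. The highest mutant library lay far below the lowest control library, and the log2 fold change was -4.54 (SE 0.45, edgeR adjusted p = 7.95e-09). In ovaries the order was the other way, with 102, 74.1 and 84.2 CPM in mutants and 72.9, 69.5 and 27.6 CPM in controls (log2 0.61, SE 0.43), and this was not called. The test of the difference between the tissues called CG6414, with a log2 effect in testes minus ovaries of -5.07 (edgeR adjusted p = 0.00629). It was the only member called of 276 tested for such a difference, against 0 of 1305 on the rest of chromosome X and 0.0291% of all 10321 genes tested. Without mutant testis library 2 or 3 the adjusted p was 0.078 or 0.0622, with an effect between -5.31 and -4.76 over the alternatives. Of the exon bases of CG6414, 93.0% lie opposite the antisense RNA asRNA:CR45481. Which gene of the pair the counts of CG6414 came from was not tested. The antisense gene itself had 6.84, 1.64 and 3.52 CPM in mutant testes and 4.64, 6.43 and 2.60 CPM in control testes, overlapping. In ovaries it had 2.59, 9.12 and 11.3 CPM in mutants and 0.959, 0 and 0 CPM in controls, all mutant libraries higher. These rest on 27 counts in mutants and 1 in controls, and the gene was too low to test in either tissue alone. Its log2 effect in testes minus ovaries was -4.14, with the sign of that of CG6414, but it rests on that 1 control count. It was not called (edgeR adjusted p = 0.756).

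Ca-alpha1T (FBgn0264386, X 6104085 to 6192483, minus strand) encodes the subunit of a low-voltage T-type calcium channel. It had 5.82, 7.88 and 4.23 CPM in mutant testes and 17.0, 36.3 and 14.7 CPM in control testes, all mutant libraries below all control libraries. The log2 fold change of -1.87 (SE 0.49) was just past the threshold (edgeR adjusted p = 0.0492). In ovaries it had 5.18, 15.4 and 7.54 CPM in mutants and 13.4, 21.6 and 7.89 CPM in controls, overlapping (log2 -0.56, SE 0.64). Without mutant library 1 or 2 or control library 1 or 2 the testis adjusted p was 0.139, 0.121, 0.0688 or 0.695.

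CG12535 (FBgn0029657, X 3387944 to 3448943, minus strand) had 38.0, 51.9 and 74.0 CPM in mutant testes and 249, 105 and 187 CPM in control testes. The groups do not overlap and the log2 fold change was -1.73 (SE 0.36, edgeR adjusted p = 0.00568). In ovaries, where it was the most abundant member, it had 6221, 3765 and 5943 CPM in mutants and 4417, 5552 and 5436 CPM in controls, with no separation (log2 0.05, SE 0.31). Without mutant library 1 or 2 or control library 1 the testis adjusted p was 0.058, 0.0626 or 0.121. Of its exon bases 57.4% lie opposite Myc, the growth regulator, and which gene of the pair the counts came from was not tested. In ovaries Myc averaged 148 CPM in mutants and 128 CPM in controls, against 5310 and 5135 CPM of CG12535. Myc had 5.13, 7.23 and 7.05 CPM in mutant testes and 7.74, 3.51 and 5.20 CPM in control testes, which overlap.

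**Figure D4:**
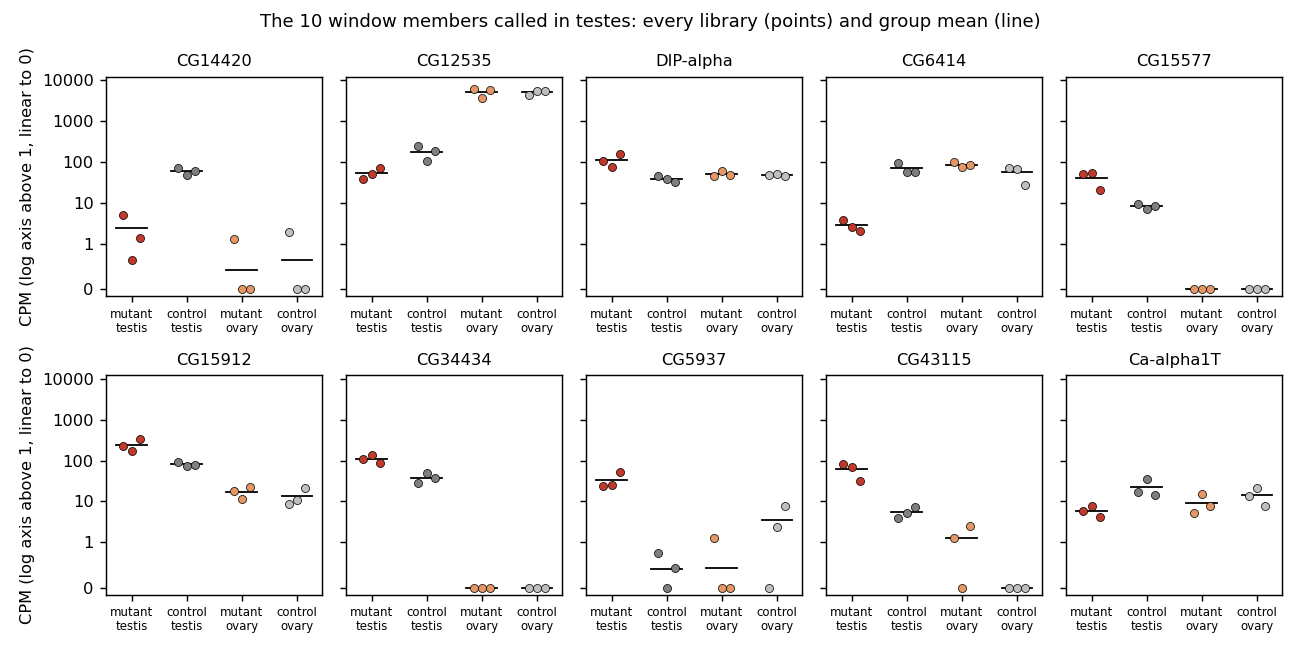
CPM of the 10 called members in every library (points) with the group mean (line), for mutant testes, control testes, mutant ovaries and control ovaries, on an axis that is logarithmic above 1 and linear below. In testes each member's genotypes are separate, as for CG14420 at 2.40 CPM in mutants and 60.5 CPM in controls and CG5937 at 33.9 CPM in mutants and 0.402 CPM in controls.

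The calls of CG14420, CG6414 and CG5937 were kept under each alternative that tested them, with largest adjusted p-values of 0.0251, 0.000845 and 0.0251. These 3 are also the called members, of 28 tested in testes, whose lower group had under 30 counts in all, and such genes pass the filter through their higher group. CG6414 was left out of the fit of genes without an opposite exon, so its call was not checked there. With no filter 12 of 379 members were called, or 3.17%, against 16 of 1811 genes of the rest of chromosome X, or 0.883%, and 0.886% of all genes tested. In a model of all 12 libraries, 3 of 276 members and 0 of 1305 genes of the rest of chromosome X were called for the testis difference, beside 0.0872% of all genes tested.

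Of the 13 members that start within 50 kb of Tdrd5l, 9 were tested in testes and 6 in ovaries, and none was called in either tissue, beside 0.942% of all tested genes in testes and 0 in ovaries. CG4198, which overlaps the end of Tdrd5l on the other strand, had 372, 383 and 233 CPM in mutant testes and 163, 246 and 229 CPM in control testes. These overlap through mutant library 3, and the log2 fold change was 0.63 (edgeR adjusted p = 0.725). Without that library it was 0.81 and called (edgeR adjusted p = 0.035), as were 6.83% of all tested genes. Other neighbours tested in testes were CG42749 at a log2 fold change of -0.15, CG3323 at 0.11, CG17764 at 0.10, the cyclin-dependent kinase Cdk7 at 0.49, CG3309 at -0.09, the DNA repair scaffold XRCC1 at -0.19 and the calcium-activated potassium channel SK at 0.41. In ovaries, CG42749 stood at -0.53, Sas10 at -0.21, Rnp4F at 0.31, CG3309 at -0.42 and SK at -0.38, while CanB, a calcineurin B subunit, was too low to test in both tissues.

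TrxT and dhd are a neighbouring pair of thioredoxin genes, known for expression in the male and the female germline, and both start within 50 kb of Tdrd5l. TrxT differed by 0.22 on the log2 scale in testes (edgeR adjusted p = 0.954) and 0, 5 and 1 counts in mutant ovaries, against none in control ovaries. dhd had 24.6, 297 and 7.54 CPM in mutant ovaries and 29.7, 18.0 and 11.8 CPM in control ovaries. The high value belongs to mutant ovary library 2, and the log2 difference of 2.46 (SE 1.25) was not called (edgeR adjusted p = 0.999). In testes dhd had 5.47, 0.657 and 1.41 CPM in mutants and 0, 0.585 and 3.46 CPM in controls, too low to test. In both genotypes TrxT was counted mainly in testes and dhd mainly in ovaries.

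In ovaries no member was called among 125 tested, with 295 untested, against 0% of all 4683 genes tested and 0 of 721 on the rest of chromosome X. DESeq2 and limma-voom also called 0 members, and 5 members had an unadjusted edgeR p under 0.05. The median size of the log2 difference was 0.38 over tested members, 0.37 on the rest of chromosome X and 0.36 on the autosomal arms. Members over 2-fold numbered 19, or 15.2%, against 13.7% of all tested genes. Genotypes without overlap were found for 11 members, or 8.8%, against 9.97% of all tested genes. Leaving out mutant ovary library 2 gave 3 calls among 135 members, or 2.22%, against 7 of 749 on the rest of chromosome X, or 0.935%, and 1.14% of all genes tested.

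The members with these calls, which were named after their values were seen, are CG2930, CG34417 and OtopLa. CG2930 had the smallest p of all members in ovaries, with 411, 195 and 328 CPM in mutants and 134, 92.3 and 89.4 CPM in controls. Its groups do not overlap even with library 2, and the log2 fold change was 1.56 (SE 0.38, edgeR adjusted p = 0.722) with all libraries and 1.83 (edgeR adjusted p = 0.00415) without library 2. CG34417 had 22.0, 123 and 18.9 CPM in mutant ovaries and 119, 94.7 and 57.9 CPM in control ovaries. OtopLa, an otopetrin proton channel gene, had 24.6, 78.1 and 21.4 CPM in mutant ovaries and 117, 65.9 and 67.1 CPM in control ovaries. For both, mutant library 2 lay in or above the control range and the other mutant libraries lay below it, with log2 differences of -2.12 and -1.83 without it (edgeR adjusted p = 0.0304 and 0.0464). NAAT1, a neutral amino acid transporter gene that was likewise picked after its values were seen, had 6.48, 1.71 and 3.77 CPM in mutant ovaries and 13.4, 18.0 and 15.8 CPM in control ovaries. Its groups do not overlap, and the log2 fold change of -2.03 (SE 0.64) was not called (edgeR adjusted p = 0.98). The summed level of 4 muscle markers was 337 to 3069 CPM in mutant ovaries and 683 to 2046 CPM in control ovaries, and its part in these values was not tested.

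Members with well-known roles were taken up as lists with at most 5 tested members each in a tissue. No list held a call in either tissue, beside 0.942% of all tested genes in testes and 0% in ovaries. The called members DIP-alpha and Ca-alpha1T are on none of the lists, so the lists do not cover every member with such a role. Of the Notch signalling and cell adhesion genes, 6 lie in the window and 4 were tested in testes and 3 in ovaries. Their median log2 fold change was -0.33 in testes and 0.56 in ovaries, beside 0.03 and 0.14 over all tested genes with a position. The adhesion gene Fas2 had 4.79, 4.27 and 2.11 CPM in mutant testes and 7.74, 10.5 and 9.09 CPM in control testes, all mutant libraries lower, with a log2 difference of -1.23 (SE 0.64, edgeR adjusted p = 0.71). The receptor N stood at 1.29 in ovaries, where mutant library 2 had 115 CPM and the other mutant libraries 11.7 and 11.3, against 37.4, 7.19 and 11.8 CPM in controls. The others named are ec at -0.75 in testes and the Hedgehog pathway gene shf at 0.56 in ovaries.

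Of 7 developmental transcription factors 3 were tested in each tissue, with a median log2 fold change of -0.15 in both. Mnt, which pairs with Max and opposes Myc, had 4.79, 3.29 and 3.52 CPM in mutant testes and 6.97, 9.36 and 9.09 CPM in control testes, without overlap but not called (log2 -1.12, edgeR adjusted p = 0.77). In ovaries it stood at 1.40. The zinc finger gene peb was at -0.15 in testes and brk, a repressor of Dpp targets, at -1.27 in ovaries.

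The germline, egg and meiosis list has 6 members, of which 2 were tested in each tissue. Besides TrxT and dhd it names fs(1)M3, an eggshell gene, with 13.0, 120 and 3.77 CPM in mutant ovaries and 13.4, 7.19 and 3.95 CPM in control ovaries. As with dhd, mutant ovary library 2 alone was high. The recombination endonuclease gene mei-9 and swa, which localises bicoid RNA, were not tested in either tissue. All 5 replication and cell cycle members were tested in testes, with a median log2 fold change of -0.19. fzr, an activator of the anaphase-promoting complex, was at -0.65 there, and the helicase subunit gene Mcm6 at -0.39 in testes and 1.34 in ovaries.

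Of 5 cytoskeletal members 4 were tested in each tissue, with medians of 0.20 in testes and 0.51 in ovaries. The myosin regulatory light chain gene sqh had a log2 fold change of 0.72 in testes, and pod1, which encodes an actin-binding protein, one of 0.95 in ovaries. Of 3 innexin genes, which encode gap junction channels, Inx2 alone was tested. It had 22.2, 8.54 and 10.6 CPM in mutant testes and 4.64, 4.68 and 9.53 CPM in control testes, overlapping (log2 1.10, edgeR adjusted p = 0.681). Among 6 neuronal signalling members, of which 4 were tested in each tissue, C3G, which encodes an exchange factor for Rap1, had 56.8, 57.2 and 83.2 CPM in mutant testes and 96.0, 97.7 and 93.5 CPM in control testes. All mutant libraries lay lower, with a log2 difference of -0.55 (edgeR adjusted p = 0.777), and the phospholipase C gene norpA was at 0.44 in ovaries. None of 6 salivary glue members was abundant enough to test, and the ubiquitin gene Ubi-p5E stood at 0.40 in testes and 0.86 in ovaries.

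Of the 3 genes nearest to each edge of the window on either side, none was called in testes. Farther out below the lower edge, dwg, which starts at 2727698, was called (log2 3.12, edgeR adjusted p = 0.000108) and is named after its value was seen. Just inside the lower edge lie CG14416, CG14417 and CG14418, which were too low to test in testes. Just outside it, CG32795 was at a log2 fold change of -0.14, w, the eye colour transporter gene, at 0.56 and CG12498 at -0.12. Just inside the upper edge, CG32718 was at 0.14, while Ir7a and CG34338 were too low. Just outside it, CARPA was too low, CG10920 was at 0.27 and CG1409 at 0.59.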

How the data were processed

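Members and gene lists were chosen with earlier results of these data known. The values used are raw counts per gene, 1 table per library, as deposited by the authors. The submitters' processing notes name FastQC, TopHat2 2.1.1, HTSeq 0.9.1, DESeq and the genome build BDGP6. Lines that name no gene (95.82% to 97.35% of records in testes, 96.93% to 98.18% in ovaries) were left out of library sizes and tests. Symbols, positions, exon bases and opposite exons came from Ensembl 115 (BDGP6.54), which holds 17252 of the 17558 features.

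Each tissue had its own two-sided test of genotype in edgeR 4.0.16 under R 4.3.3, with filterByExpr at a minimum count of 10, TMM scaling and robust quasi-likelihood dispersions, and Benjamini-Hochberg adjustment over all tested genes. The tissue difference was tested as an interaction over 12 libraries. SE is the log2 fold change over the square root of F. CPM are TMM-scaled within a tissue. A ratio to a group of 1 to 3 counts has a 95% counting interval; a group at 0 was given a floor of 3 counts. Labels state that each genotype was dissected in 3 biological replicates, and no libraries of a group agreed within sampling noise (chi-square over its degrees of freedom, 4.31 to 50.6).

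Named genes are every called member, members starting within 50 kb of Tdrd5l, the 5 highest in control testes and in control ovaries, the 2 with the smallest p of each role list, 3 genes on each side of each window edge, TrxT and dhd. Alternatives were other scalings, filters and tools (DESeq2 1.42.0, limma-voom of limma 3.58.1), a replicate block, leaving out each library, a model of all libraries, genes without an opposite exon and other window widths.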

Additional observations from a re-analysis of the deposited data

Results flagged for a closer look

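The genotype difference of CG6414 differed between the tissues. Its log2 effect in testes minus that in ovaries was -5.07, with an adjusted p of 0.00629 in edgeR's quasi-likelihood test of the interaction over 12 libraries. Mutant testes averaged 2.84 ± 0.843 CPM and control testes 70.1 ± 21.1 CPM (SD, n = 3 each), whereas the 3 mutant ovary libraries had 102, 74.1 and 84.2 CPM and the 3 control ovary libraries 72.9, 69.5 and 27.6 CPM. The effect was called in 18 of the 20 alternatives that tested CG6414, and none of them turned its direction. The fit of genes without an opposite exon left the gene out. RNA selection, sex and age go with tissue, so the tissue and these cannot be told apart, and the part of asRNA:CR45481, which covers 93.0% of its exon bases on the other strand, was not tested. That antisense gene had 2.59, 9.12 and 11.3 CPM in mutant ovaries and 0.959, 0 and 0 CPM in control ovaries, from 27 counts and 1 count. Its own effect in testes minus ovaries was -4.14 (edgeR adjusted p = 0.756).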

How the results depend on the processing

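Members called in testes numbered 10 and stayed within 1.5 times of that in 15 of 20 alternatives. The count was 4 of 173 in a fit of genes without an opposite exon, where the rest of chromosome X gave 7 of 753, and 6 of 176 when members with an opposite exon were only set aside, an alternative chosen after seeing the data. It was 3 in a model of all 12 libraries, where the rest of chromosome X gave 0, and 5 within 1 Mb of Tdrd5l. Leaving out 1 library at a time gave 7 to 19 members and 8 to 66 genes of the rest of chromosome X, the highest of both without mutant testis replicate 3. As shares, this was 2.71% to 7.14% of tested members, 0.69% to 5.19% on the rest of chromosome X and 0.493% to 6.83% of all tested genes. In ovaries the count of 0 members became 3 of 125 (2.4%) with each library's balance of counts between genes that lack and genes that have an opposite exon (a log2 ratio) as a covariate, also chosen after seeing the data, when the rest of chromosome X gave 15 of 721 (2.08%) and all tested genes 1.96%. Leaving out 1 ovary library gave 0 to 3 members and 0 to 7 genes of the rest of chromosome X, where DESeq2 called 1. Members called for the tissue difference numbered 1. They were 2, with CG5937 added, under DESeq2 size factors, no filter, DESeq2 and limma-voom, 0 within 1 Mb, and 0 to 2 when 1 library was left out. In the fit of genes without an opposite exon the call was CG5937, since CG6414 was left out. Of the 10 called members 7 lost the call in some alternative, and none changed direction. CG34434 and Ca-alpha1T lost it with library totals alone (edgeR adjusted p = 0.0719 and 0.188) and in the fit of genes without an opposite exon (edgeR adjusted p = 0.0509 and 0.108), and Ca-alpha1T with limma-voom (adjusted p = 0.141). The median size of the log2 difference stayed between 0.288 and 0.491 in testes and between 0.320 and 0.644 in ovaries. Replicate numbers are shared by the genotypes, and the main tests treated the libraries as unpaired. Correlations of same-numbered deviations were -0.187, 0.010 and -0.337 in testes and -0.532, -0.435 and 0.275 in ovaries. Those of differently numbered libraries ran from -0.236 to 0.301 in testes and from -0.585 to 0.687 in ovaries. With 3 libraries in a group, such correlations cannot settle whether the libraries were paired. With a replicate block 7 members were called in testes, or 3.02%, without DIP-alpha, CG15912 and Ca-alpha1T, and 0 members in ovaries. In testes 12 genes of the rest of chromosome X were then called, or 1.04%, and 0.809% of all tested genes. In ovaries 295 members had too few counts to be tested.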

Other observations

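Below or near the limits of the comparison lay members named here after their values were seen. Muc4B, a mucin gene, had 0 counts in each mutant testis library and 12, 2 and 14 counts in control testis libraries, which is at least 13.0-fold lower in mutant testes when a floor of 3 counts is set for the mutant group. It did not pass the filter on low counts, and was called with no filter (edgeR adjusted p = 0.0165) and with a filter of 1 CPM in 3 libraries (edgeR adjusted p = 0.0365). frma was counted 15, 30 and 13 times in mutant testes and 3, 0 and 0 times in control testes. The ratio of 58 to 3 counts was 13.9 (95% counting interval 4.53 to 69.4), and it was not called (edgeR adjusted p = 0.082), though it was called with no filter (edgeR adjusted p = 0.0436), with limma-voom (adjusted p = 0.0489), without mutant testis library 3 (edgeR adjusted p = 0.0487) and without control testis library 1 (edgeR adjusted p = 0.0235). CG33668 was counted 10, 24 and 4 times in mutant testes and 0, 2 and 1 times in control testes, a ratio of 9.11 (2.89 to 46.1), and did not pass the filter. In ovaries the 38 counts of Pdp in mutants all came from library 2, against 1 count in controls.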
